A study of Mus musculus with 16 samples.

Results

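A set of 6 genes of naive T cell recirculation were followed across sorted T cells: *S1pr1* and *S1pr4*, which encode receptors for sphingosine-1-phosphate (S1P), *Klf2*, *Klf3* and *Foxo1*, which encode transcription factors, and *Cd44*, which encodes an adhesion receptor used in the sort. They were chosen by gene name, as genes of lymphocyte traffic and of the factors that act on them, and all 6 were found among the 24421 genes of the count table. All 6 were also among the 13554 genes with enough counts to be tested. RNA sequencing was done on lymph node T cells of C57BL/6 mice in 4 groups of 4 replicates, 16 libraries in all. Every group was sorted as CD25-negative, CD62L-high and CD44-low, the surface pattern of naive cells. The groups were the third of CD4+ cells with the lowest surface CD5 (CD4+CD5lo), the third with the highest (CD4+CD5hi), and the same ends of the CD8+ cells (CD8+CD5lo and CD8+CD5hi). The labels call the replicates biological but name no animals, ages or sexes, so p-values measure only the spread between these libraries.

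Naive T cells circulate between blood and lymph nodes and leave the node by moving towards S1P, a lipid that is abundant in blood and lymph. S1PR1 is the receptor that drives this exit, while S1PR4 is a lymphocyte receptor for the same lipid with less settled functions. KLF2 is a zinc finger factor that switches on *S1pr1*, FOXO1 is a forkhead factor that maintains *Klf2*, the IL-7 receptor and other genes of the naive state and is sent out of the nucleus by PI3K and AKT signalling, and KLF3 is a relative of KLF2 that mostly represses. CD44 binds hyaluronan and rises on activated and memory T cells, which is why low CD44 is used as a gate for naive cells.

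Promoter sequence upstream of the genes for the 3 factors is shown because these factors moved together from library to library in the values that follow. How many other genes moved in the same way was not counted. Sequences are from RefSeq on GRCm38.p6, cover the upstream part of each promoter window up to the base before the annotated gene start, and are written in the direction of transcription. An entry was found for 5 of the 6 genes, with none for *S1pr1*. Letter patterns were searched on both strands: CACCC, a core bound by KLF factors, and GTAAACA, a core bound by FOXO factors. Matches are in capitals and do not overlap.
*Klf2*, chr8:72318812-72319032, forward strand: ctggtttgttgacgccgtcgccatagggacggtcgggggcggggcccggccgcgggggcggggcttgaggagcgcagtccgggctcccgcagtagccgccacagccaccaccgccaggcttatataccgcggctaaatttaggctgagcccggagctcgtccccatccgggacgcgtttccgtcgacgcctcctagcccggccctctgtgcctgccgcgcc
*Klf3*, chr5:64803271-64803387, forward strand: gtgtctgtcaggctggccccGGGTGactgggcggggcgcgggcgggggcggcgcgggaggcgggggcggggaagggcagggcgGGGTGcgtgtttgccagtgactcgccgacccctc
*Foxo1*, chr3:52268087-52268335, forward strand: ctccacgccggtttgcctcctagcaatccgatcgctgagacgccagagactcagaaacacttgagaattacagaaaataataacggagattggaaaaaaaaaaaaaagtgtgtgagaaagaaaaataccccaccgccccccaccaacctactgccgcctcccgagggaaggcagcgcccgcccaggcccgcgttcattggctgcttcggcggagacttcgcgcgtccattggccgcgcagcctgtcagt

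The *Klf2* window of 221 bases held neither pattern. In windows of the same size, 48% of 32851 mouse promoters held CACCC and 2.81% held GTAAACA. The *Klf3* window of 117 bases held CACCC at 2 places, both on the reverse strand, and 28.4% of promoters held it in a window of that size. The *Foxo1* window of 249 bases held neither pattern, which 51.9% (CACCC) and 3.15% (GTAAACA) of promoters held. GC content was 71.5% for *Klf2*, 79.5% for *Klf3* and 55.8% for *Foxo1*. A match is only a match of letters, and binding was not measured.

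Libraries held between 71447252 and 93418385 counts. Values below are CPM, counts scaled to a common library size with normalisation between libraries, given as mean ± SD of 4 libraries. *Cd5*, the gene of the sorted protein, was measured at 255 ± 19.5 CPM in CD4+CD5lo and 1386 ± 34.4 in CD4+CD5hi, and at 200.4 ± 12.3 in CD8+CD5lo and 498 ± 37.8 in CD8+CD5hi, so the sort was visible in RNA. In 3 libraries B cell markers stood apart: the sum of 16 markers was 395 CPM in CD4+CD5lo replicate 3, 623 in CD8+CD5lo replicate 3 and 1009 in CD8+CD5hi replicate 4, against at most 73.7 in the other 13. These are called the 3 B-marked libraries below. Results that depend on them are given both ways. Libraries with the same replicate number deviated from their group means together in the CD4 comparison and in both comparisons of CD8 with CD4 cells, so fits with the replicate number as a block are given beside those results where they change a call. For CD5 in CD8 cells this held less evenly (r from 0.09 to 0.72), and blocked calls are given there too.

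Between CD5hi and CD5lo CD4 cells 0 of the 6 genes passed the test (edgeR quasi-likelihood test, Benjamini-Hochberg adjusted p under 0.05), where 4.08% of all tested genes did. In that comparison 0 of 6 also had an unadjusted p under 0.05, and DESeq2 and limma voom called 0. Between CD5hi and CD5lo CD8 cells 1 of 6 passed, *Cd44*, against 9.46% of all genes. Between CD8 and CD4 cells 2 of 6 passed at low CD5, *Klf3* and *Foxo1*, against 19.5% of all genes, and 3 of 6 at high CD5, *S1pr1*, *Foxo1* and *Cd44*, against 30.3%. With these backgrounds, 2 or 3 calls of 6 genes between the lineages say little about the genes as a set. The CD5 effect in CD8 cells minus that in CD4 cells was called for 0 of 6, against 0.31% of all genes, and 1 of 6 had an unadjusted p under 0.05. DESeq2 and limma voom called 0 of 6 in that test too. The 5 comparisons share groups and are not independent of each other. In the 4 comparisons of 2 groups, the share of all genes whose groups did not overlap in CPM was 9.29% for CD5 in CD4 cells, 14.8% for CD5 in CD8 cells, 22.3% for CD8 against CD4 at low CD5 and 28.9% at high CD5.

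**Figure D1:**
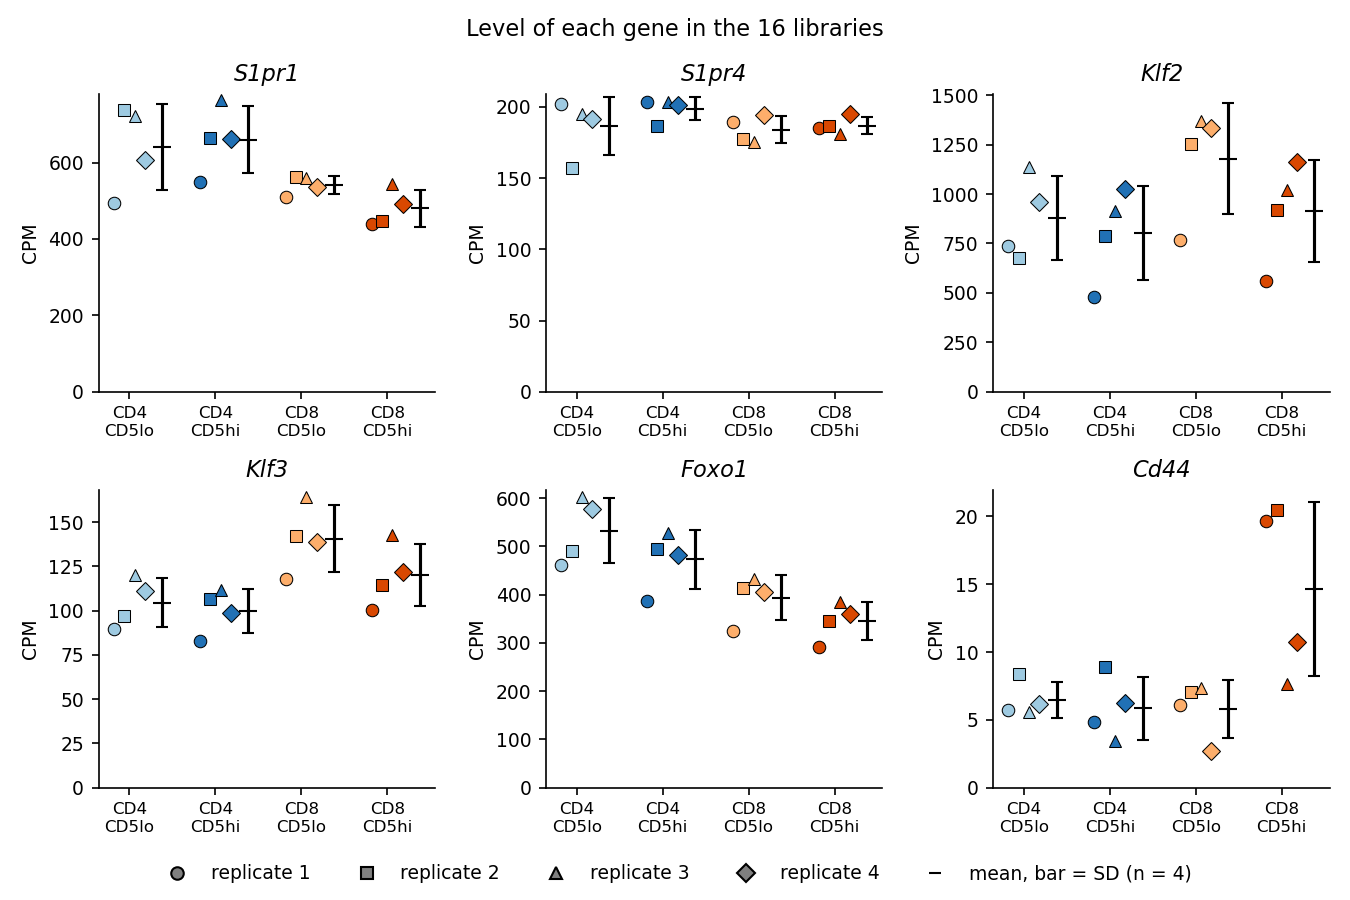
CPM of the 6 genes in each of the 16 libraries by group, on a linear axis from 0, with the replicate number as the marker shape and the mean and SD of 4 libraries as a horizontal tick and bar. *Foxo1* libraries of CD8 cells lie below those of CD4 cells at the same CD5 level, and *Cd44* is highest in CD8+CD5hi, from 7.61 to 20.5 CPM.

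*S1pr1* (chr3:115710433-115715072, reverse strand, GRCm38, as for the positions below) was lower in CD8 than in CD4 cells at high CD5. It was measured at 495, 737, 721 and 607 CPM in CD4+CD5lo replicates 1 to 4, and at 549, 664, 764 and 661 CPM in CD4+CD5hi. In CD8+CD5lo it was at 511, 562, 558 and 535 CPM, and in CD8+CD5hi at 439, 448, 543 and 490.5 CPM. All 4 CD8+CD5hi libraries lay below all 4 CD4+CD5hi libraries, whereas the CD5lo groups overlapped. *S1pr1* fell by 0.46 ± 0.12 (SE) on the log2 scale in CD8+CD5hi against CD4+CD5hi, 1.37-fold lower (adjusted p = 0.00776), and it was lower in 4 of 4 same-numbered pairs. At low CD5 the difference was -0.24 ± 0.12 (adjusted p = 0.198), and with a replicate block -0.23 ± 0.07 (adjusted p = 0.0308). Without the 3 B-marked libraries the blocked difference was -0.18 and was not called (adjusted p = 0.178). It was also called at low CD5 when CD4+CD5lo replicate 1 was left out (-0.34, adjusted p = 0.0353).

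With CD5, *S1pr1* was not called in either lineage. The log2 difference of CD5hi from CD5lo was 0.04 ± 0.12 in CD4 cells (adjusted p = 0.987, 95% interval -0.21 to 0.30) and -0.17 ± 0.12 in CD8 cells (adjusted p = 0.422, interval -0.43 to 0.08). In CD8 cells the CD5hi library was the lower one in 4 of 4 same-numbered pairs, by 0.04 to 0.33 on the log2 scale. With the block the CD8 difference was -0.18 ± 0.07 and was not called (adjusted p = 0.0959). These values do not show that *S1pr1* stayed level in CD8 cells. In order of group means *S1pr1* went from CD4+CD5hi (660 ± 87.7 CPM) to CD4+CD5lo (639.9 ± 112), CD8+CD5lo (542 ± 23.8) and CD8+CD5hi (480.0 ± 47.8), and no 2 neighbours in that order differed by the unblocked test. Fewer cells that express a gene and less RNA in each cell cannot be told apart in these bulk samples.

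*S1pr4* (chr10:81497747-81500132, reverse strand) was the steadiest of the 6 genes. It was at 202, 157, 195 and 191 CPM in CD4+CD5lo, and at 203, 187, 203 and 201 CPM in CD4+CD5hi. In CD8+CD5lo it was at 189, 177, 175 and 194 CPM, and in CD8+CD5hi at 185, 186, 181 and 195 CPM. Apart from CD4+CD5lo replicate 2, the lowest, all libraries lay between 175 and 203 CPM, and the groups overlapped in every comparison. None of the 5 tests passed: the log2 difference with CD5 was 0.09 ± 0.07 in CD4 cells (adjusted p = 0.764) and 0.02 ± 0.07 in CD8 cells (adjusted p = 0.902). Between CD8 and CD4 cells it was -0.02 ± 0.07 at low CD5 (adjusted p = 0.910) and -0.09 ± 0.07 at high CD5 (adjusted p = 0.379). The 95% intervals of these 4 differences ran from -0.24 at the lowest to 0.24 at the highest. Within a library, *S1pr1* CPM was 3.50 ± 0.94 times that of *S1pr4* in CD4+CD5lo and 3.32 ± 0.46 times in CD4+CD5hi. For the CD8 cells the ratio was 2.95 ± 0.26 at low CD5 and 2.57 ± 0.29 at high CD5.

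*Klf2* (chr8:72319033-72321656, forward strand) varied more between replicates than between groups. In CD4+CD5lo it was at 739, 678, 1136 and 962 CPM, and in CD4+CD5hi at 477, 785, 914 and 1027 CPM. In CD8+CD5lo it was at 766, 1254, 1367 and 1331 CPM, and in CD8+CD5hi at 561, 919, 1018 and 1163 CPM. Replicate 1 was the lowest library of 3 groups and the second lowest of CD4+CD5lo, and the groups overlapped in every comparison. The log2 difference with CD5 was -0.13 ± 0.26 in CD4 cells (adjusted p = 0.972, 95% interval -0.68 to 0.41) and -0.37 ± 0.26 in CD8 cells (adjusted p = 0.439, interval -0.91 to 0.18). Both intervals are wide and do not show that *Klf2* stayed level. In CD8 cells the CD5hi library was lower in 4 of 4 same-numbered pairs, by 0.20 to 0.45. With the block the CD8 difference was -0.38 ± 0.12 and was called (adjusted p = 0.0286), with 25% of all genes called in that fit. Without the 3 B-marked libraries the blocked call was lost (adjusted p = 0.0692).

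Between the lineages *Klf2* was higher in the CD8 library of all 4 same-numbered pairs, at low CD5 by 0.05 to 0.89 and at high CD5 by 0.16 to 0.23. The unblocked test did not call it at low CD5 (0.42 ± 0.26, adjusted p = 0.312), where the block did (0.40 ± 0.12, adjusted p = 0.016). The blocked call held without the 3 B-marked libraries (0.45, adjusted p = 0.0277). At high CD5 the difference was 0.19 ± 0.26 (adjusted p = 0.622). The order of group means was CD8+CD5lo (1179 ± 280 CPM), CD8+CD5hi (915 ± 257), CD4+CD5lo (878 ± 210.5) and CD4+CD5hi (801 ± 237). Each step was smaller than the larger SD of its 2 groups, and the first step exceeded the SD of CD8+CD5hi.

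*Klf3* (chr5:64803388-64832901, forward strand) was higher in CD8 than in CD4 cells at low CD5. It was at 89.8, 96.9, 120.3 and 111 CPM in CD4+CD5lo, and at 82.7, 106, 112 and 98.6 CPM in CD4+CD5hi. In CD8+CD5lo it was at 118, 142, 164 and 138 CPM, and in CD8+CD5hi at 100.5, 115, 143 and 122 CPM. CD8+CD5lo replicate 1 lay below the highest CD4+CD5lo library, so the groups overlapped. *Klf3* rose by 0.43 ± 0.13 on the log2 scale, 1.35-fold (adjusted p = 0.0260), and was higher in 4 of 4 same-numbered pairs. That call was lost without the 3 B-marked libraries (0.42, adjusted p = 0.0567), while the blocked fit called *Klf3* both with all libraries (0.43, adjusted p = 9.9e-06) and without those 3 (0.42, adjusted p = 0.000368). The unblocked call was also lost without 1 of 4 libraries: CD4+CD5lo replicate 1 or 2, or CD8+CD5lo replicate 2 or 3 (adjusted p from 0.0571 to 0.0939).

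At high CD5 *Klf3* was again higher in the CD8 library of 4 of 4 pairs, by 0.11 to 0.35. The unblocked difference there was 0.26 ± 0.13 (adjusted p = 0.135), and with the replicate block it was 0.26 ± 0.05 and called (adjusted p = 0.000605). With CD5 the log2 difference was -0.07 ± 0.13 in CD4 cells (adjusted p = 0.973, 95% interval -0.34 to 0.21) and -0.23 ± 0.13 in CD8 cells (adjusted p = 0.311, interval -0.50 to 0.04). CD5hi was lower in 4 of 4 CD8 pairs, by 0.18 to 0.31. With the block the CD8 difference was -0.23 ± 0.05 and was called (adjusted p = 0.00397), with 25% of all genes called in that fit. Without the 3 B-marked libraries the blocked call was lost (adjusted p = 0.0544). *Klf3* shares 404 bases, 7.5% of its exonic length, with the antisense gene *Gm20033*. The strand setting of the counting is unknown here, so reads of that stretch cannot be assigned to one of them.

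*Foxo1* (chr3:52268336-52353221, forward strand) was lower in CD8 than in CD4 cells at both CD5 levels. It was at 462, 490.0, 602 and 577 CPM in CD4+CD5lo, and at 387, 495, 527 and 482 CPM in CD4+CD5hi. In CD8+CD5lo it was at 325, 413, 433 and 404 CPM, and in CD8+CD5hi at 292, 346, 385 and 360.2 CPM. The CD8 and CD4 libraries did not overlap at either CD5 level, and CD8 was lower in 4 of 4 same-numbered pairs at each. *Foxo1* fell by 0.44 ± 0.12 at low CD5 (1.35-fold lower, adjusted p = 0.0155) and by 0.45 ± 0.12 at high CD5 (1.37-fold lower, adjusted p = 0.00875). At low CD5 the unblocked call was lost without the 3 B-marked libraries (-0.42, adjusted p = 0.0579). The blocked fit called *Foxo1* there with all libraries (-0.44, adjusted p = 7.9e-06) and without those 3 (-0.42, adjusted p = 0.000413). The unblocked call was also lost without 1 of 3 libraries: CD4+CD5lo replicate 3 or 4, or CD8+CD5lo replicate 1 (adjusted p from 0.0536 to 0.0549).

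With CD5 the *Foxo1* differences were of like size in both lineages. In CD4 cells CD5hi libraries differed by -0.17 ± 0.12 on the log2 scale (adjusted p = 0.690, 95% interval -0.42 to 0.08), and in CD8 cells by -0.19 ± 0.12 (adjusted p = 0.383, interval -0.44 to 0.07). The difference between these effects was -0.01 ± 0.17 (adjusted p = 0.9997). With the replicate block the CD4 difference was -0.17 ± 0.05 and was called (adjusted p = 0.0393), with 9.68% of all genes called in that fit. Without the 3 B-marked libraries the blocked difference was not called (adjusted p = 0.170). In CD8 cells the blocked difference was -0.19 ± 0.05 and was called (adjusted p = 0.0142), with 25% of all genes called in that fit. That call too was lost without the 3 B-marked libraries (adjusted p = 0.105). CD5hi was lower in 4 of 4 CD8 pairs, by 0.15 to 0.26. The means followed the order CD4+CD5lo (533 ± 67.5 CPM), CD4+CD5hi (473 ± 60.4), CD8+CD5lo (394 ± 47.3) and CD8+CD5hi (346 ± 39.3). *Foxo1* shares 674 exonic bases (7.78%) with the antisense gene *Gm20402*, with the same limit on strand.

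*Cd44* (chr2:102811141-102901665, reverse strand) was low in 3 groups and higher in CD8+CD5hi. It was at 5.70, 8.39, 5.55 and 6.17 CPM in CD4+CD5lo, and at 4.82, 8.90, 3.46 and 6.22 CPM in CD4+CD5hi. In CD8+CD5lo it was at 6.10, 7.07, 7.35 and 2.70 CPM, and in CD8+CD5hi at 19.7, 20.5, 7.61 and 10.7 CPM. The 4 CD8+CD5hi libraries lay above the 4 CD8+CD5lo libraries, but the lowest of them exceeded the highest of the other group by little, and replicates 1 and 2 were the highest. *Cd44* rose by 1.33 ± 0.36 on the log2 scale with CD5 in CD8 cells, 2.52-fold (adjusted p = 0.0268, 95% interval 0.58 to 2.09). Without the 3 B-marked libraries the rise was 1.61 and was called (adjusted p = 0.0245). The blocked fit called it with all libraries (1.28, adjusted p = 0.00546) and without those 3 (1.80, adjusted p = 0.000116). The unblocked call was lost with any one of 4 libraries left out: replicate 1 or 4 of CD8+CD5lo, or replicate 1 or 2 of CD8+CD5hi (adjusted p from 0.0566 to 0.103). It was also lost in a fit of these 2 groups alone (1.34, adjusted p = 0.0757).

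In CD4 cells the *Cd44* difference with CD5 was -0.14 ± 0.35 (adjusted p = 0.984, 95% interval -0.89 to 0.61). The CD5 effect in CD8 cells minus that in CD4 cells was 1.47 ± 0.50 (unadjusted p = 0.0097 from edgeR, adjusted p = 0.344), so a difference between the lineages was not shown by this test. Among CD5hi cells *Cd44* rose by 1.32 ± 0.36 in CD8 over CD4 cells, 2.5-fold (adjusted p = 0.00996), with CD8+CD5hi replicate 3 inside the CD4+CD5hi range and the CD8 library higher in 4 of 4 same-numbered pairs. Among CD5lo cells it did not pass (-0.15 ± 0.36, adjusted p = 0.850). All groups had been sorted for low surface CD44, so these RNA levels lie inside that gate.

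**Figure D2:**
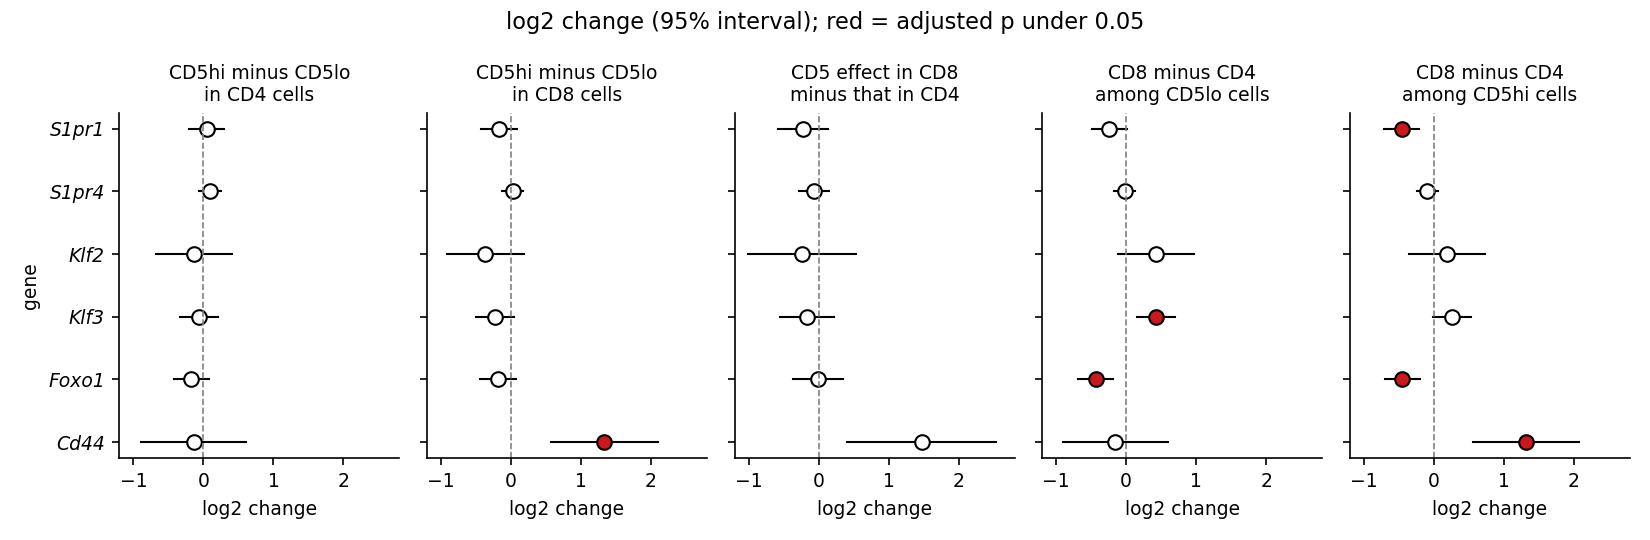
log2 difference of each of the 6 genes in the 5 comparisons, with points for the fitted difference, bars for its 95% interval, and red for an adjusted p under 0.05. *Cd44* is called with CD5 in CD8 cells (1.33) and between lineages at high CD5 (1.32), *Foxo1* between lineages at both CD5 levels (-0.44 and -0.45), *Klf3* at low CD5 (0.43) and *S1pr1* at high CD5 (-0.46).

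The calls between lineages at high CD5 were the ones kept in every fit tried. *S1pr1*, *Foxo1* and *Cd44* kept their direction and their call there in each of 26 other fits, which changed the normalisation, filter, tool, block or libraries. Over those fits the adjusted p ran from 0.000188 to 0.0390 for *S1pr1*, from 4.4e-06 to 0.0392 for *Foxo1* and from 0.000116 to 0.0392 for *Cd44*. In the blocked edgeR fit of all libraries the order differed. Adjusted p at low CD5 was 7.9e-06 for *Foxo1* and 9.9e-06 for *Klf3*. At high CD5 it was 4.4e-06 for *Foxo1*, 0.000188 for *S1pr1* and 0.00189 for *Cd44*. With the replicate block 4 of 6 genes were called between lineages at low CD5 (*S1pr1*, *Klf2*, *Klf3* and *Foxo1*), against 32.1% of all genes in that fit, and at high CD5 4 of 6 (*Klf3* beside the 3 named), against 46.7%. The block also raised the share of all genes called with CD5 in CD8 cells to 25% and that called in the test of the lineage difference to 2.8%. There same-numbered CD8 libraries did not all correlate with each other.

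Of the 6 genes, 4 were low in replicate 1 and high in replicate 3 of every group. The share of all tested genes that did the same was not counted. Across all tested genes, replicate 1 libraries deviated together (r from 0.66 to 0.72 in the 4 comparisons of 2 groups). For replicate 3 libraries r was 0.11 to 0.80. The pattern is therefore not shown to be particular to these 4 genes. *Klf2* in replicate 1 deviated from its group mean by -0.22 (CD4+CD5lo), -0.69 (CD4+CD5hi), -0.59 (CD8+CD5lo) and -0.66 (CD8+CD5hi) on the log2 scale. *Klf3* in replicate 1 deviated by -0.21 to -0.26, *Foxo1* by -0.20 to -0.28 and *S1pr1* by -0.08 to -0.35, and for these 4 genes replicate 1 was below the mean in 4 of 4 groups. Replicate 3 was above the mean in 4 of 4 groups for the same 4 genes, by 0.20 to 0.40 for *Klf2*, 0.17 to 0.26 for *Klf3*, 0.14 to 0.19 for *Foxo1* and 0.04 to 0.22 for *S1pr1*. *S1pr4* and *Cd44* did not follow this pattern but had others. *Cd44* in replicate 2 was above the mean in 4 of 4 groups, by 0.35 to 0.64. *S1pr4* deviated by -0.24 to -0.003 in replicate 2 and by 0.02 to 0.08 in replicate 4, again in 4 of 4 groups. The labels do not say what a replicate number stands for, such as an animal, a sort or a library batch, and libraries of one number may share it. Every group holds 1 library of each number, but the shifts differed in size between groups.

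**Figure D3:**
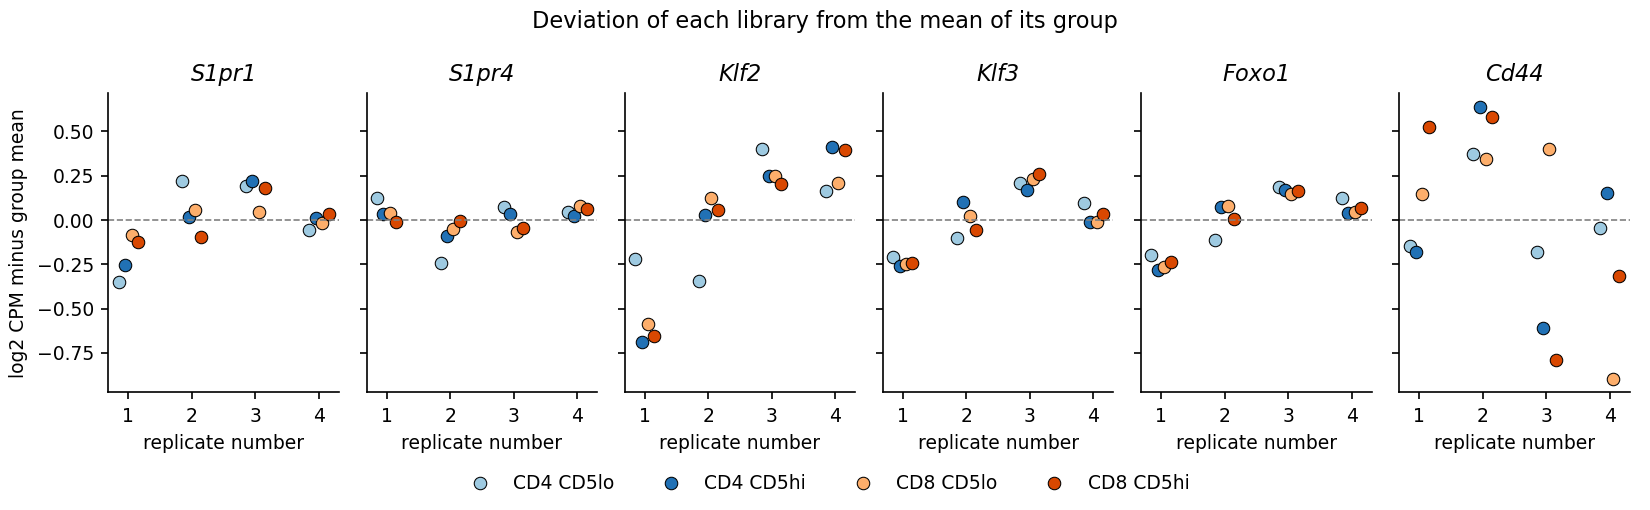
log2 CPM of each library minus the mean of its group, for the 6 genes by replicate number, with 1 point per group. *Klf2*, *Klf3*, *Foxo1* and *S1pr1* lie below 0 in all 4 libraries of replicate 1 and above 0 in all 4 of replicate 3. *S1pr4* and *Cd44* do not share this pattern. In replicate 2 all 4 libraries lie above 0 for *Cd44* and below 0 for *S1pr4*.

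Per kilobase of exon, *Klf2* was the most abundant of the 6 transcripts and *Cd44* the least. Mean levels in CD4+CD5lo were 476 CPM per kb for *Klf2*, 210.1 for *S1pr1*, 78.1 for *S1pr4*, 61.5 for *Foxo1*, 19.4 for *Klf3* and 1.14 for *Cd44*. The same order held in the other 3 groups, and *Cd44* reached 2.59 CPM per kb in CD8+CD5hi. Summed over groups, *S1pr1* made up 70.4% of the level per kb of the S1P receptors, *Klf2* 65.3% of that of the KLF factors and *Foxo1* 62.4% of that of the FOXO factors.

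Relatives of these genes were present at lower levels. *S1pr2* was at 0.71 to 0.90 CPM per kb by group, and *S1pr3* and *S1pr5*, the latter a receptor of natural killer cells, each had counts in only 8 of 16 libraries. Among the KLF factors *Klf6* followed *Klf2*, at 103 to 149 CPM per kb, then *Klf13* at 71.1 to 90.7. Among the FOXO factors *Foxo4* was at 20.3 to 28.0 CPM per kb and *Foxo3* at 4.80 to 5.91. *Foxo4* had the same order of groups as *Foxo1*.

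**Figure D4:**
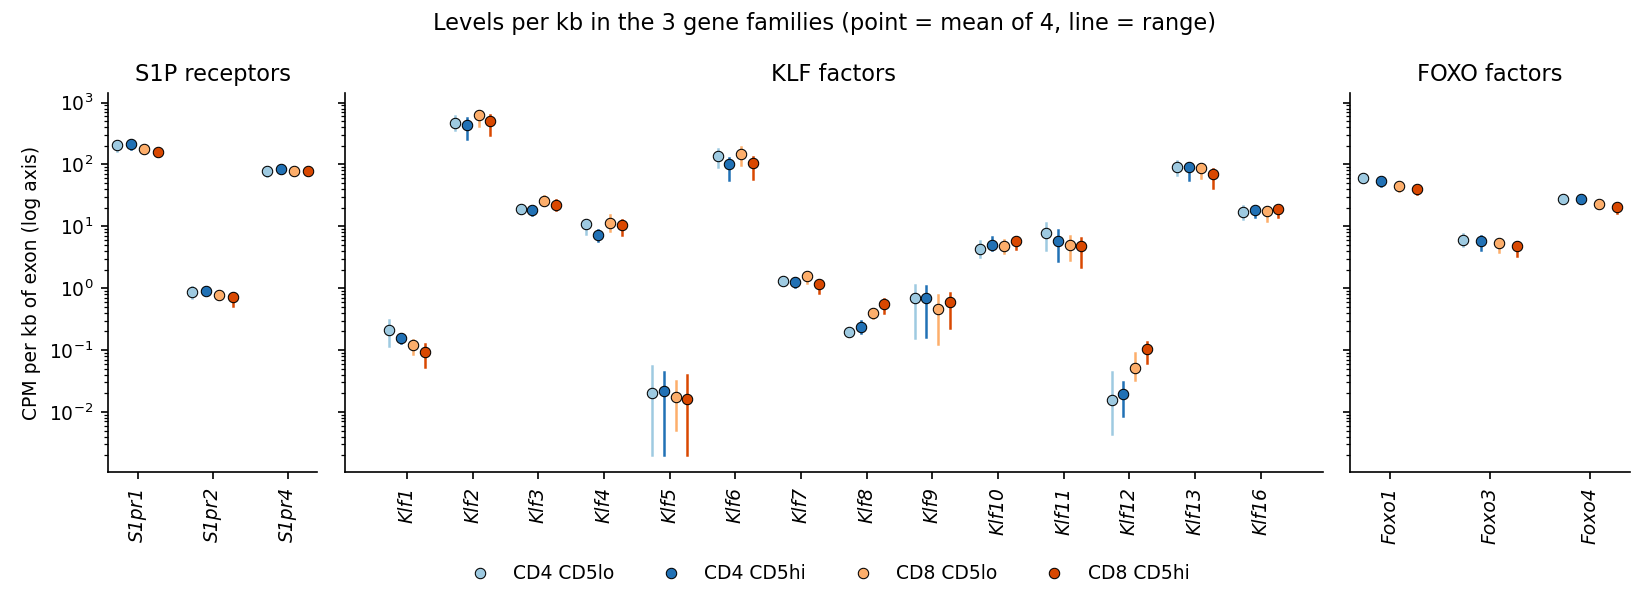
Mean CPM per kb of exon in each group (points, with lines from the lowest to the highest library) for the tested S1P receptors, KLF factors and FOXO factors, on a log axis. *S1pr1*, *Klf2* and *Foxo1* are the highest of their families in all 4 groups. For *Klf5*, with libraries at 0, the line is drawn down to a small floor value.

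Genes around each of the 6 were counted from lists of pathway genes. Of all genes, 4.08% were called with CD5 in CD4 cells, 9.46% in CD8 cells, and 19.5% and 30.3% between lineages at low and high CD5. With the block these shares were 9.68%, 25%, 32.1% and 46.7%. Counts in the lists are to be read beside them. The list around S1P held 15 tested genes, for S1P receptors, S1P synthesis and breakdown, and ceramide synthases. Of these, 2 fell and 0 rose with CD5 in CD4 cells, and 1 fell in CD8 cells, all of them ceramide synthase genes. *Cers4* and *Cers6*, which encode ceramide synthases, fell in CD4 cells (-0.36, adjusted p = 0.0207, and -0.86, adjusted p = 0.00341), and *Cers4* fell in CD8 cells (-0.40, adjusted p = 0.00589). Between CD8 and CD4 cells 3 of the 15 fell at low CD5 and 5 at high CD5, with 0 that rose, where 19.5% and 30.3% of all genes were called. They included *Cers6* (-2.11 and -1.15), *Cers4* (-0.57 and -0.61) and, at high CD5, *Cers5*, another ceramide synthase gene (-0.24). At low CD5 they also included *Sgpp1*, an S1P phosphatase (-0.32). *S1pr1* and *S1pr4* are themselves in this list, and *S1pr1* was among the 5 that fell at high CD5. The median difference of the list was -0.02 at low CD5 and -0.24 at high CD5, against 0.00 and 0.01 for all genes. With the block 5 of the 15 were called at low CD5, against 32.1% of all genes, and 2 with CD5 in CD8 cells, against 25%.

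Of 23 genes for signalling and internalisation of S1P receptors, 0 changed with CD5 in CD4 cells and 1 in CD8 cells, *Rgs14*, a regulator of G protein signalling (-0.34, adjusted p = 0.0191). With the replicate block 1 of the 23 was called in CD4 cells, and 0 of 23 were called by the unblocked edgeR fit. In CD8 cells the block called 4 of 23 with CD5 (2 rose and 2 fell), against 25% of all genes. At low CD5 2 fell and 1 rose between CD8 and CD4 cells, and at high CD5 3 fell and 1 rose, where 19.5% and 30.3% of all genes were called. The gene that rose was *Mst1* (0.50 and 0.43), which by its symbol is the secreted macrophage stimulating factor and not the kinase also called MST1, so it is no gene of this pathway. *Rgs14* fell by 0.48 and 0.61, *Arhgef1*, a signalling gene downstream of G proteins, fell by 0.33 and 0.58, and *Gnai2*, the G protein subunit through which S1PR1 signals, fell by 0.21 at high CD5. *Cd69*, whose protein pulls S1PR1 off the surface, differed by 0.41 at low CD5 (adjusted p = 0.225) and 0.48 at high CD5 (adjusted p = 0.101). The block raised the counts to 8 and 10 of 23, where it called 32.1% and 46.7% of all genes, and the medians of the list were 0.04 and -0.01.

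Of 14 tested KLF factors, 0 were called with CD5 in CD4 cells and 0 in CD8 cells by the unblocked edgeR fit. With the block 3 were called in CD4 cells, against 9.68% of all genes. In CD8 cells the block called 7 of 14 (2 rose and 5 fell), against 25% of all genes. Between lineages 2 rose and 0 fell at each CD5 level, where 19.5% and 30.3% of all genes were called. They were *Klf3* and *Klf8* (1.01, adjusted p = 0.000839) at low CD5, and *Klf8* (1.23, adjusted p = 9.5e-05) and *Klf12* (2.39, adjusted p = 0.00607) at high CD5. *Klf8* and *Klf12* encode repressors of the same subgroup as KLF3, and both were scarce, with *Klf8* at 1.03 to 2.90 CPM and *Klf12* at 0.09 to 0.61 CPM by group. *Klf8* is also a known target of KLF3. With the block the counts were 7 and 6 of 14, against 32.1% and 46.7% of all genes, and the medians of the list were 0.11 and 0.04. Of 7 targets and partners of KLF3, 0 changed with CD5 in either lineage, and 1 rose (*Klf8*) and 1 fell (*Ldhb*, a lactate dehydrogenase subunit, -1.67 and -1.28) between the lineages at each CD5 level. With the block 1 of the 7 was called with CD5 in CD4 cells and 2 in CD8 cells.

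Genes that act on KLF2 were counted in a list of 14. With CD5 1 fell in CD4 cells, *Hdac7*, which encodes a histone deacetylase recruited by MEF2 factors (-0.47, adjusted p = 0.00602). In CD8 cells 2 fell, *Mapk7*, the ERK5 kinase that acts on MEF2 (-0.30, adjusted p = 0.0144), and *Kat2b*, an acetyltransferase (-0.35, adjusted p = 0.0283). With the block 5 of the 14 fell in CD8 cells and 0 rose, against 25% of all genes called. Between lineages 3 rose and 2 fell at low CD5 and 3 rose and 3 fell at high CD5, against calls for 19.5% and 30.3% of all genes. *Hdac7* rose by 0.60 and 0.77, *Wwp1*, a ubiquitin ligase of KLF2, by 0.35 and 0.44, and *Hdac5* fell by 0.52 and 0.57. The medians were 0.07 and -0.03.

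Of 35 tested FOXO factors and genes of the PI3K and AKT pathway upstream, 1 rose and 2 fell with CD5 in CD4 cells, and 0 rose and 5 fell in CD8 cells. *Pdk1*, which encodes pyruvate dehydrogenase kinase and not the AKT kinase of like name, fell in both (-0.65 and -0.64, adjusted p = 2e-05 and 4e-05). *Pik3r5*, a regulatory PI3K subunit, fell by 0.40 in CD4 cells, and *Pik3cb*, a catalytic one, by 0.36 in CD8 cells. *Trib2*, a pseudokinase that represses FOXO factors, rose in CD4 cells (0.28, adjusted p = 0.00715) and fell in CD8 cells (-0.25, adjusted p = 0.00936), and the difference between these effects was called (-0.54, adjusted p = 0.0109). Between lineages 3 rose and 7 fell at low CD5 and 5 rose and 9 fell at high CD5, with 19.5% and 30.3% of all genes called. They included *Trib2* (-1.01 and -1.55), *Pik3cb* (-0.62 and -0.75), *Cdk2* (-0.55 and -0.63) and *Pik3cd*, the PI3K catalytic subunit of leukocytes, which rose (0.38 and 0.34). *Foxo1* is itself in this list and was among those that fell at both CD5 levels. With the block 7 of 35 were called with CD5 in CD4 cells, against 9.68% of all genes. In CD8 cells the block called 12 of 35 (2 rose and 10 fell), against 25% of all genes. The medians of the list lay between -0.09 and 0.00 in the 4 comparisons of 2 groups.

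Of 26 tested target genes of FOXO1 and KLF2 in naive T cells, 2 rose and 1 fell with CD5 in CD4 cells, and 1 rose and 3 fell in CD8 cells. *Bcl2l11*, which encodes the death factor BIM, rose in both (0.65, adjusted p = 0.00916, and 0.83, adjusted p = 0.000999), *Bcl6* rose in CD4 cells (0.66) and *Ccr9*, a gut homing receptor, fell in both (-1.98 and -1.19). *Tsc22d3* (-0.63) and the integrin gene *Itgb7* (-0.34) fell in CD8 cells. The best known homing and survival targets did not pass with CD5: *Ccr7* differed by -0.25 in CD4 cells (adjusted p = 0.926) and -0.32 in CD8 cells (adjusted p = 0.607), and *Il7r* by 0.14 (adjusted p = 0.841) and 0.01 (adjusted p = 0.97). These latter 2 genes were named for their known role after their values were seen.

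Between lineages 2 targets rose and 6 fell at low CD5, and 3 rose and 12 fell at high CD5, beside calls for 19.5% and 30.3% of all genes. *Ccr9* (3.61 and 4.40) and the chemokine receptor gene *Cxcr3* (6.42 and 8.19, from 0.22 and 0.10 CPM in CD4 cells to 19.4 and 29.7 in CD8 cells) rose. *Cdkn1b*, a cell cycle inhibitor induced by FOXO factors, fell by 0.46 and 0.57, and *Tcf7*, a factor of naive and memory T cells, fell by 0.41 and 0.56. The median difference of the list was -0.04 at low CD5 and -0.14 at high CD5, against 0.00 and 0.01 for all genes. *S1pr1* and *Klf2* are themselves in this list. With the block 8 of 26 were called with CD5 in CD4 cells and 15 of 26 between lineages at low CD5, where the block called 9.68% and 32.1% of all genes. In CD8 cells the block called 11 of 26 with CD5 (3 rose and 8 fell), against 25% of all genes.

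*Cd44* stood among other genes of memory and effector cells in CD8+CD5hi. Of 38 tested genes of memory and effector T cells, 8 rose and 2 fell with CD5 in CD8 cells (median 0.59, against 0.00 for all genes), and 5 rose and 5 fell in CD4 cells (median -0.22, against -0.01). Of all genes, 9.46% were called in CD8 cells and 4.08% in CD4 cells. With the block 18 of the 38 rose and 4 fell in CD8 cells, against 25% of all genes called. In CD8 cells *Anxa2*, an annexin (1.94, adjusted p = 2.1e-05), *Xcl1*, a chemokine (3.43, adjusted p = 0.000294), *Itgb1*, an integrin (0.56, adjusted p = 0.00044) and *Eomes*, a factor of memory CD8 cells (1.41, adjusted p = 0.000601) rose. The summed level of the 40 genes of the list found in the table ran from 3116 to 3814 CPM in CD8+CD5hi, from 2359 to 2576 in CD8+CD5lo and from 1392 to 1493 in the CD4 groups. CD8+CD5hi libraries thus held the highest level of these genes, as they did of *Cd44*, and their part in the *Cd44* result was not tested. The other groups did not match: *Cd44* was at 5.81 ± 2.14 CPM in CD8+CD5lo and 6.45 ± 1.32 in CD4+CD5lo. In CD8 over CD4 cells 21 of the 38 rose and 2 fell at low CD5, and 25 rose and 2 fell at high CD5. There 19.5% and 30.3% of all genes were called. By library, the sum in CD8+CD5hi replicates 1 to 4 was 3814, 3483, 3536 and 3116 CPM, and *Cd44* was at 19.7, 20.5, 7.61 and 10.7 CPM.

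Of 14 tested partners and ligands of CD44, 0 changed with CD5 in CD4 cells (0 with the block too) and 2 rose in CD8 cells: *Hmmr*, a hyaluronan receptor that is also a cell division gene (2.63, adjusted p = 0.00773), and *Esrp2*, a splicing factor that acts on *Cd44* transcripts (1.63, adjusted p = 0.00293). Both were scarce, at 2.95 and 3.30 CPM in CD8+CD5hi. Of all genes, 9.46% were called with CD5 in CD8 cells. With the block 5 of 14 were called there (3 rose and 2 fell), against 25% of all genes. Between lineages 1 rose at low CD5, *Selplg*, the P-selectin ligand (0.40), and 3 rose and 1 fell at high CD5. There 19.5% and 30.3% of all genes were called. With the block 8 of 14 were called at high CD5, against 46.7% of all genes. The medians of the list in CD8 cells and between lineages were 0.11 with CD5, 0.16 at low CD5 and 0.18 at high CD5.

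Early response and stress genes were lowest in sum in CD8+CD5hi, as *Foxo1* was. Whether handling of the cells raised them was not tested. Of 26 such genes, among them *Fos*, *Jun*, *Egr1*, *Nr4a1* and heat shock genes, 0 rose and 2 fell with CD5 in CD4 cells. In CD8 cells 0 rose and 6 fell (medians -0.23 and -0.31). Of all genes, 4.08% and 9.46% were called. Between lineages 1 rose and 5 fell at low CD5 and 2 rose and 9 fell at high CD5 (medians -0.11 and -0.28). There 19.5% and 30.3% of all genes were called. With the block 5, 13 and 19 of 26 were called in CD4 cells, at low CD5 and at high CD5, against 9.68%, 32.1% and 46.7% of all genes. In CD8 cells the block called 11 of 26 with CD5, all lower, against 25% of all genes. Their summed level ran from 12180.5 to 16013 CPM in CD4+CD5lo and from 11440.2 to 13283 in CD4+CD5hi. For CD8 cells it ran from 10573 to 12461 CPM at low CD5 and from 8673 to 10317 at high CD5. The part of these genes in the results for *Foxo1*, *Klf2* and *S1pr1* was not tested. In replicate 1, where *Klf2* was low, the sum was the highest of its group in CD4+CD5lo and the lowest in CD4+CD5hi and CD8+CD5hi.

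Genes of regulatory T cells rose with CD5 in CD4 cells, 9 of 13 tested with 0 that fell (median 1.74, with 4.08% of all genes called), although CD25-positive cells had been gated out. In CD8 cells 5 of the 13 rose with CD5 and 0 fell (median 0.69, with 9.46% of all genes called). With the block 8 rose and 1 fell in CD8 cells, with 25% of all genes called. Their summed level was 165 to 216 CPM in CD4+CD5lo and 504 to 580 CPM in CD4+CD5hi, against 649.6 to 876 CPM in CD8+CD5lo and 705 to 895 CPM in CD8+CD5hi. *Foxp3*, their defining factor, was at 4.96 ± 1.10 CPM in the low and 17.4 ± 3.44 CPM in the high CD5 group of CD4 cells. In CD8 cells it was at 2.23 ± 1.29 CPM at low CD5 and 3.47 ± 3.24 CPM at high CD5. The list holds genes that CD8 cells express as well, such as *Itgae* and *Il2rb*. CD4+CD5hi is the group against which *S1pr1*, *Foxo1* and *Cd44* were called at high CD5, and the part of these genes in those results was not tested.

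Each of the 16 B cell markers had counts in every group. The summed level of 16 myeloid markers was 47.9 to 84.6 CPM over all libraries. Endothelial cells also express *S1pr1* and *Klf2*: *Prox1*, *Lyve1* and *Kdr*, which mark lymphatic and blood endothelium, were at or under 0.178 CPM in every library, with *Prox1* at 0 in both CD4 groups. *Cdh5*, another endothelial gene, was at 0.323 to 1.81 CPM, and *Pecam1*, which T cells also express, was at 142 to 271 CPM. The sum of all 15 endothelial and stromal markers, mostly *Pecam1*, was 230.4 to 274 CPM in CD4 and 145 to 173 CPM in CD8 cells. Natural killer markers summed to 5.86 to 15.7 CPM in CD4 and 353 to 589 CPM in CD8 cells, and the defining gene *Ncr1* was at or under 0.966 CPM throughout. The CD8 sum was mostly *Nkg7*, with means of 304 CPM in CD8+CD5lo and 371 in CD8+CD5hi, and *Klrd1*, with 86.5 and 101 CPM. *Cd3e*, a gene of all T cells, was at 313 to 482 CPM, *Cd4* averaged 1159 CPM in CD4+CD5lo and 1023 CPM in CD4+CD5hi, and *Cd8a* 1979 CPM in CD8+CD5lo and 1604 CPM in CD8+CD5hi.

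Genes with the most similar profiles were found by the root mean square difference of centred log2 CPM over the 16 libraries, among 8958 candidates with a mean of at least 5 CPM. For *S1pr1* they were *Btg1* (0.0990), *Necap1* (0.105) and *Eif1* (0.109), and for *S1pr4* *Ctbp1* (0.0497), *Ergic3* (0.0507) and *Tbc1d13* (0.0513). For *Klf2* they were *Notch2* (0.170), *Plec* (0.189) and *Furin* (0.193), for *Klf3* *Sos1* (0.0897), *Hdac4* (0.102) and *Slc35e2* (0.106), and for *Foxo1* *Etv3* (0.0824), *Dnmbp* (0.0887) and *Cln8* (0.0899). For *Cd44* the nearest were *Pola1* (0.445), *Cdca7* (0.456) and *Ccdc50* (0.467), farther off than for the other 5 genes. None of the 6 was among the nearest of another. The gene's own SD over the 16 libraries, which sets the scale, was 0.25 for *S1pr1*, 0.10 for *S1pr4*, 0.44 for *Klf2*, 0.27 for *Klf3*, 0.30 for *Foxo1* and 0.75 for *Cd44*.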

How the data were processed

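RNA of 16 libraries of sorted T cells was measured by sequencing. Per the labels' protocols, RNA came from TRIzol and RNeasy extraction and went into either of 2 Illumina kits, TruSeq RNA version 2 or TruSeq stranded mRNA, with no kit named per sample. No source used here gives the strand setting of featureCounts. Per the submitters' processing notes, reads were handled with STAR (2.5.2a) on mm10, featureCounts (1.4.6-p3) and DESeq2. The authors deposited raw counts per gene, as 1 table with a column per sample, and all columns were matched to a sample by name (0 left over). The series' design speaks of 2 technical replicates of each sample, for which 1 column stands in the table. Low counts (1 to 9) were even in 73.9 to 80.5% of cases by library, so halved counts were tried as an alternative.

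The test was run in R 4.3.3 with edgeR 4.0.16. It used TMM scaling of the counts, filterByExpr with a minimum count of 10 and a minimum total of 15, a model of the 4 groups in all 16 libraries, the quasi-likelihood F test, two-sided, and Benjamini-Hochberg adjustment over the 13554 genes kept in each comparison, with a threshold of 0.05. The SE is the size of the log2 change over the square root of F. The alternatives used limma 3.58.1 (voom), DESeq2 1.42.0, other scalings, no filter, a replicate block, fewer groups and fewer libraries. The script was checked on simulated counts. Libraries of a group differed by far more than sampling noise (chi-square of 29.1 to 209 per degree of freedom for any pair), so none was taken as a copy.

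Same-numbered libraries were taken as paired where all their deviations from the group means correlated, across genes, above 0.1. Pearson's r across genes, which are not independent replicates, was 0.42 to 0.69 for CD5 in CD4 cells, 0.33 to 0.80 for CD8 against CD4 at low CD5 and 0.34 to 0.72 at high CD5. It was 0.09 to 0.72 for CD5 in CD8 cells, which were not taken as paired. The pairing comes from these data, since the labels say only that numbers are shared.

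Lengths and positions are from GENCODE vM21 (GRCm38), and promoter sequences from RefSeq. The 6 genes and the gene lists were chosen with earlier results of these data known. From each list, up to 4 genes with the smallest adjusted p under 0.05 were named in each comparison, and other genes named were chosen for their role.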

Additional observations from a re-analysis of the deposited data

Results flagged for a closer look

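Of 24 sets of 4 libraries (6 genes in 4 groups), 1 held a library far from the others. *S1pr4* in CD4+CD5hi replicate 2 was at 187 CPM, below the other 3 at 201 to 203 CPM, and its gap to the nearest was 0.876 of the range of the group, above Dixon's critical value. By chance about 1 in 20 sets is picked out in this way. The difference itself was small, and *S1pr4* passed no test in any comparison.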

How the results depend on the processing

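No mean CPM of a gene in a group moved by more than its SD in any of 168 recomputed values. Of 774 recomputed log2 changes, 718 kept their direction and their side of the threshold, 31 changed sign, 11 gained a call and 14 lost one. Those that changed sign were all uncalled. With the replicate number as a block, the number of the 6 genes called went from 0 to 1 for CD5 in CD4 cells, from 1 to 4 for CD5 in CD8 cells (*Klf2* -0.38, adjusted p = 0.0286, *Klf3* -0.23, adjusted p = 0.00397, and *Foxo1* -0.19, adjusted p = 0.0142, beside *Cd44* in edgeR, with 25% of all genes called in that fit, while without the 3 B-marked libraries only *Cd44* was called and adjusted p was 0.0692, 0.0544 and 0.105 for these 3), and from 2 to 4 at low CD5, while at high CD5 it went from 3 to 4. Between the 2 CD8 groups, r was 0.72 and 0.46 for replicates 1 and 2 but 0.11 and 0.09 for replicates 3 and 4. Replicates 3 and 4 each hold 1 B-marked CD8 library. Direct pairing of the CD8 groups was thus not shown for every number, though each paired with the CD4 group of its CD5 level. For 2 of the 4 numbers a CD8 library correlated best with its own number. The block called no other gene in the test of the lineage difference of the CD5 effect (0). Without the 3 B-marked libraries, 0 genes were called at low CD5 without a block and 3 with it (*Foxo1*, *Klf2* and *Klf3*). In that blocked fit, an alternative added after seeing the data, 1 was called for the lineage difference of the CD5 effect (*Cd44*, 1.79, adjusted p = 0.00405). With only the 2 groups compared, 0 were called for CD5 in CD8 cells. Leaving out 1 library gave 0 to 1 calls for CD5 in CD8 cells, 1 to 2 at low CD5, 3 at high CD5 and 0 in the other comparisons.

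Without the 3 libraries, *Klf2* (0.016) and *Klf3* (0.0098) with CD5 in CD4 cells, *S1pr4* with CD5 in CD8 cells (-0.0072) and *S1pr4* at low CD5 (0.030, and 0.034 with the block) changed sign, as did *Cd44* in CD4 cells in the blocked fit without them (0.0070). Without a filter the lineage difference of the CD5 effect on *Foxo1* was 0.00055. Leaving out 1 library gave ranges across 0 in CD4 cells for *S1pr1* (-0.061 to 0.12), *Klf2* (-0.27 to 0.051), *Klf3* (-0.13 to 0.016) and *Cd44* (-0.42 to 0.043), in CD8 cells for *S1pr4* (-0.0015 to 0.064), in the lineage difference of the CD5 effect for *S1pr4* (-0.098 to 0.0083) and *Foxo1* (-0.097 to 0.065), and at low CD5 for *S1pr4* (-0.091 to 0.023) and *Cd44* (-0.29 to 0.086). The cause of these shifts was not tested. *Cd44*, at 2.70 to 20.5 CPM, had the widest intervals of the 6 genes, so smaller changes of it were not detectable.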
